A study of Mus musculus with 2 samples.

Results

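The 8 chemokine genes described here were Ccl3, Ccl4, Ccl5, Ccl6, Ccl9, Xcl1, Cxcl10 and Cxcl16. They were chosen by name, and all 8 were among the 13528 genes of the deposited count table of liver immune cells. Transcripts were read in single CD45+ mononuclear cells of mouse liver as unique molecular identifiers (UMIs), which count captured molecules, together with oligonucleotide-tagged antibodies that were not used here. TG mice carry dnTGFβRII, a human TGF-β type II receptor made dominant-negative, which the mouse CD4 promoter expresses in T cells, and are used as a model of autoimmune cholangitis. WT mice are C57BL/6 mice without the transgene. TG cells were captured in 1 library that also held cells of IFN-γ ARE-Del-/- mice, and WT cells in a second library that also held cells of P40-/-IL-2Ra-/- mice. The labels give every animal an age of 10 weeks, while the study's methods state a slightly younger one, and neither gives the number of animals per pool. With 1 library per genotype there was no replicate check, no test was made, and the effect of genotype and that of the library cannot be told apart. All intervals are 95% and cover counting error only.

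Chemokines are small secreted proteins that guide leukocytes along concentration gradients through G-protein-coupled receptors. Ccl3 and Ccl5 bind Ccr1. Ccl3, Ccl4 and Ccl5 are made by activated T cells, NK cells and myeloid cells. Ccl6 and Ccl9 are rodent chemokines of myeloid cells that act through Ccr1. Xcl1, a product of NK cells and cytotoxic T cells, draws the Xcr1+ conventional dendritic cells that cross-present antigen. Cxcl10 is made in response to interferons and draws Cxcr3+ T cells, whereas Cxcl16 is held on the cell surface and is the ligand of Cxcr6, a receptor of liver-resident lymphocytes.

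In the GENCODE annotation of GRCm38, all 8 are protein-coding genes. Ccl5, Ccl9, Ccl6, Ccl3 and Ccl4 lie in this order within 138.906 kb (chr11:83525778-83664683), with Ccl4 alone on the plus strand. Cxcl16 lies on the same chromosome (chr11:70453983-70459984, minus strand), Xcl1 on chromosome 1 (chr1:164931644-164935527, minus strand) and Cxcl10 on chromosome 5 (chr5:92346638-92348889, minus strand). The RefSeq promoter table (GRCm38.p6) held 5 of the 8 genes, and the 250 bases before the start were searched on both strands for 4 short patterns. Matches were found in Cxcl10, Xcl1 and Ccl3, whose promoters are printed because these genes carry the main differences in the myeloid, NK and cluster 5 cells. Capitals mark the matches. In Cxcl10 (chr5:92348890-92349139, minus strand) the first is the interferon response pattern GAAANNGAA, 213 to 205 bases before the start, and the second is the NF-kB-like pattern GGANNTTCC, 158 to 150 bases before it. In Xcl1 (chr1:164935523-164935772, minus strand) the match is the T-box pattern TCACACC, read on the opposite strand 188 to 182 bases before the start. In Ccl3 (chr11:83649379-83649628, minus strand) it is the interferon response pattern on the opposite strand, 39 to 31 bases before the start.
Cxcl10: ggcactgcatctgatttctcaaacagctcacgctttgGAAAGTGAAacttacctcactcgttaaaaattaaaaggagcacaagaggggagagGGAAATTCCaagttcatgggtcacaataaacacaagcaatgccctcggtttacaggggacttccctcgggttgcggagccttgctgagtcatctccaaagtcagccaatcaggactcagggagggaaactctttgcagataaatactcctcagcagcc
Xcl1: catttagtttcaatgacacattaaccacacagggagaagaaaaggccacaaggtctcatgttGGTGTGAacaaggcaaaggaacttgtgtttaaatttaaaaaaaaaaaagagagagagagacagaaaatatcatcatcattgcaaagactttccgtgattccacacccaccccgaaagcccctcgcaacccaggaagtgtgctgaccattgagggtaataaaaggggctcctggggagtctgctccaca
Ccl3: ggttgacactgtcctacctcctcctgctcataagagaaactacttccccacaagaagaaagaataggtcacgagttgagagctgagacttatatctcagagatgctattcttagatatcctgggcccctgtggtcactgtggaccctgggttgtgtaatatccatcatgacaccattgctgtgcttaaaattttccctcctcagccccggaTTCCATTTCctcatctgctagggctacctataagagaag
No match overlapped another. The promoters of Ccl6 and Ccl9 held none of the 4 patterns, and the STAT pattern TTCNNNGAA was in none of the 5. Among 32851 promoters of this length, GGANNTTCC was present in 3.59%, TTCNNNGAA in 7.02%, GAAANNGAA in 7.13% and TCACACC in 3.33%. A match describes letters in a window, not a bound site.

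The filtered table held 4647 TG cells and 7282 WT cells, with a median of 3298 and 2653.5 UMIs per cell. The study's annotation gives 14 cell types and 30 clusters, and 9 cell types had at least 50 cells in each genotype. Levels are given as CPM, the UMIs of a gene summed over all cells of a type and genotype and multiplied by 1000000 over the total UMIs of those cells. The mouse Tgfbr2 gene, to which reads of the human transgene need not align, was 1.71-fold to 2.79-fold higher in TG in the 5 T and NK classes and 0.757-fold to 1.30-fold of WT in the B and myeloid classes. Of the genes at 0 in all TG cells of the filtered table, 567 had UMIs in 9 cells or fewer in the library file, so a 0 there can be a filter. The counts of the 8 chemokines were the same in both files.

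Some names went against their markers. The cells annotated as monocytes, all of cluster 5, held 62244 (TG) and 42308 (WT) CPM of the 4 neutrophil markers against 704 and 591 CPM of the 6 monocyte markers, S100a8 was found in 98.5% and 97.7% of them, and F13a1 had no UMI. They are called cluster 5 cells here. The cells annotated as macrophages (109 TG, 261 WT) were clusters 15, 22 and 27, and cluster 27 held 23 WT cells and 0 TG cells. Their summed macrophage markers were at 40.8 (TG) and 1285 CPM (WT), with 6 of 7 measured markers at 0 in TG, and they also held monocyte markers (2274 and 1760 CPM) and conventional dendritic cell markers (604 and 907 CPM). In the library file the same TG cells held 8 UMIs of C1qb and 5 of C1qc. The class is therefore called macrophage-annotated cells. In the NK class, Cd3e was found in 79.3% of TG cells and 11.7% of WT cells, and cluster 11 of that class held 343 TG cells and 22 WT cells. The T cell markers of TG cells in clusters 3 and 11 were at 4882 and 3908 CPM, above their NK markers at 1669 and 1470 CPM. The class is therefore called NK-annotated cells. In the CD8αα class, Trdc, a γδ T cell receptor gene, was found in 4.88% of TG and 42.3% of WT cells. The part of these differences in the results below was not tested, except where a value is given.

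Abundant chemokine transcripts were also read in B cells. In cluster 1, the 1028 TG and 1329 WT mature B cells with few T cell markers, Ccl5 was at 341 and 272 CPM and was found in 55.3% and 35.4% of cells, at a median of 2898 and 1978 UMIs per cell. There, Ccl3 was at 29 and 26.1 CPM, Ccl4 at 55.8 and 31.1, Ccl6 at 13.7 and 10.9, Ccl9 at 2.87 and 2.82, and Xcl1 at 15.9 and 3.88. Levels near these values in other classes are read as background, and no profile of empty wells was used here. These B cell levels were themselves higher in the TG library for Xcl1 (log2 ratio 2.04, interval 1.08 to 3.13), for Ccl4 (0.84) and for Ccl5 (0.33).

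Basophils held the highest levels of Ccl3, Ccl4, Ccl6 and Ccl9 in both genotypes, although there were only 45 TG and 16 WT basophils. Ccl3 was at 14408 CPM (13821 to 15014) in TG and 15279 (14136 to 16490) in WT, and Ccl4 at 10472 and 9315. Every basophil of both genotypes held both transcripts. Ccl6 was at 11718 CPM in TG and 6380 in WT, and Ccl9 at 3230 and 4230. A single-cell view gave the same picture, with a median of 14781 CPM of Ccl3 per TG basophil and 18195 per WT basophil. Because of their level, basophils gave 39% of the Ccl3 UMIs of the 4647 TG cells from 0.968% of those cells, and 69.4% of the Ccl9 UMIs. In WT, where basophils were 0.220% of cells, NK-annotated cells gave the largest share of Ccl3 (30.5%) and macrophage-annotated cells that of Ccl9 (58.6%).

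**Figure D1:**
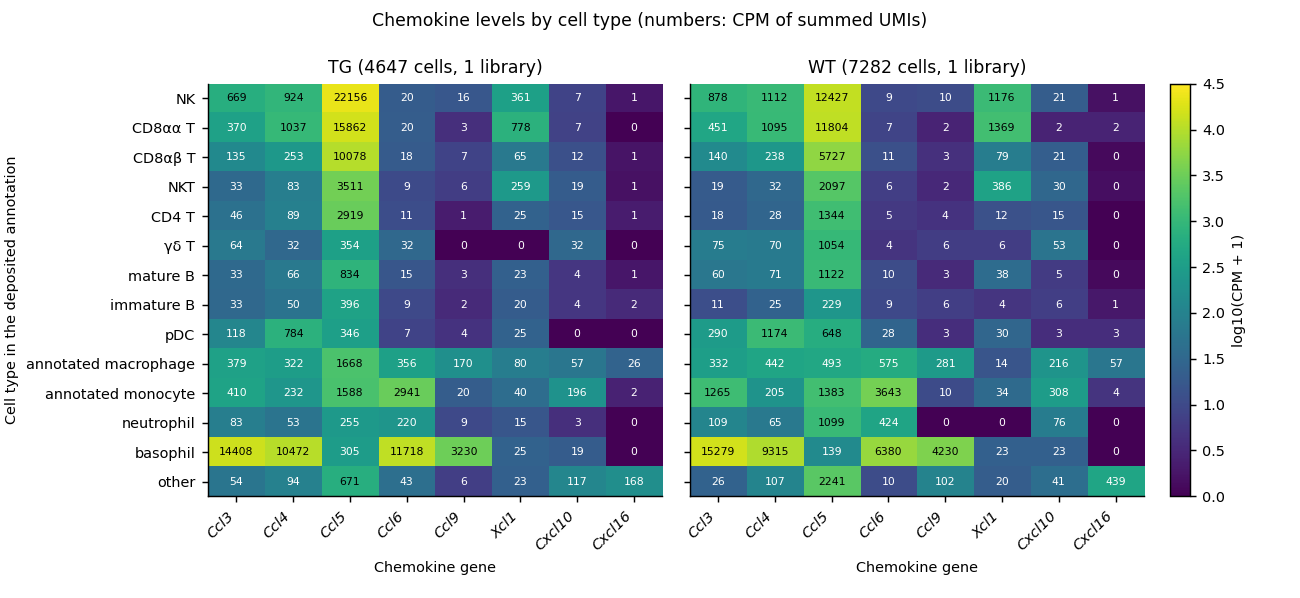
Level of each chemokine (columns) in each annotated cell type (rows) for TG (left) and WT (right), coloured by log10(CPM + 1) with the CPM printed in each cell; each panel is 1 library, and classes such as WT basophils rest on few cells. The brightest cells are Ccl5 in NK, CD8αα and CD8αβ T cells and Ccl3, Ccl4 and Ccl6 in basophils, and Cxcl16 stays at 57.2 CPM or less outside the small class named other.

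Ccl5 was the most abundant of the 8 in lymphocytes and was highest in NK-annotated cells, at 22156 CPM in TG and 12427 in WT. CD8αα T cells followed with 15862 and 11804 CPM, then CD8αβ T cells with 10078 and 5727, NKT cells with 3511 and 2097, and CD4 T cells with 2919 and 1344. The intervals of neighbouring classes did not overlap, and the order was the same in both genotypes. Clusters of 1 class differed, and cluster 12 of the CD8αβ class, at 28509 CPM in TG and 16259 in WT, held more Ccl5 than clusters 3 (14036 and 11124) and 8 (19656 and 13599) of the NK class and less than its cluster 11 (30586 and 17539), which had 22 WT cells. All NK-annotated cells and CD8αα T cells but 1 WT NK-annotated cell held Ccl5. Within CD4 T cells the level was uneven, with a median of 560 CPM and a 90th percentile of 10540 CPM per TG cell.

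Xcl1 was high in fewer classes. CD8αα T cells held 778 CPM in TG and 1369 in WT, NK-annotated cells 361 and 1176, NKT cells 259 and 386, and CD8αβ T cells 65.1 and 79.3. In WT the CD8αα and NK intervals (1273 to 1470 and 1124 to 1231) did not overlap. Clusters of the NK class differed, and its cluster 3 held more Xcl1 than CD8αα T cells, at 822 CPM in TG and 1785 in WT. Xcl1 was found in 71.5% of TG and 85.1% of WT CD8αα T cells, beside 5.15% and 3.95% of mature B cells, at median depths of 3168.5 and 2702 against 2923 and 2044.5 UMIs. After each cell was thinned to 1000 UMIs these shares were 44.1% and 60.8%, beside 1.87% and 1.47%. NKT cells, the largest WT class with 2232 cells, gave 44.9% of the Xcl1 UMIs of the WT cells, and CD8αα T cells gave 35.8% of those of the TG cells.

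By class, Ccl3 and Ccl4 in lymphocytes were highest in NK-annotated cells and CD8αα T cells. In WT, clusters 18 and 23 of the CD8αβ class (37 and 76 WT cells) together held Ccl4 at a higher level than either class. Their joint Ccl3 level was above that of CD8αα T cells. Ccl4 was at 1037 CPM in TG and 1095 in WT CD8αα T cells, 924 and 1112 in NK-annotated cells, and 784 and 1174 in plasmacytoid dendritic cells. Ccl3 was at 370 and 451, 669 and 878, and 118 and 290 CPM in the same classes. Plasmacytoid dendritic cells, the interferon-producing dendritic cells, thus held far more Ccl4 than Ccl3, and Ccl4 was found in 78.3% of TG and 73.1% of WT cells, or 45.7% in each after thinning to 1000 UMIs, beside 5.52% and 3.88% of mature B cells. Ccl3 and Ccl4 were found together more often in some classes than in others. Among NK-annotated cells with a UMI of Ccl3, Ccl4 was found in 74.8% (TG) and 78.1% (WT), against 51.3% and 52.2% of NK-annotated cells without Ccl3, at median depths of 2953 against 2686 UMIs in TG and 2508 against 2434 in WT. In CD8αβ T cells the shares were 58.2% against 40.2% in TG and 60.2% against 13.6% in WT, at median depths of 5331.5 against 4394 and 3635 against 2958 UMIs. In TG the shares were close in CD4 T cells (20.6% against 20.1%) and NKT cells (24.1% against 20.9%). In WT they were apart, at 21.9% against 5.41% in CD4 T cells and 23.9% against 6.73% in NKT cells. Median depths in the WT CD4 T cells were 2342.5 and 2440.5 UMIs. In WT NK-annotated cells Xcl1 was found in 61.1% of cells with Ccl3 and 74.5% of cells without, but in 68.4% of cells with Ccl4 and 63.2% of cells without. In TG NK-annotated cells the shares for Ccl3 were 34.8% and 32.7%. In WT, clusters 3 and 8 of this class held Xcl1 at 1785 and 542 CPM and Ccl3 at 570 and 1213 CPM. The part of this cluster mix in the shares was not tested.

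The myeloid classes carried Ccl6, Ccl9, Cxcl10 and Cxcl16. Ccl6 was at 2941 CPM in TG and 3643 in WT cluster 5 cells and was found in 95.6% and 93.0% of them, beside 4.31% and 1.81% of mature B cells, while Ccl9 there was at 20.1 and 9.57 CPM. Macrophage-annotated cells held both, with Ccl6 at 356 and 575 CPM and Ccl9 at 170 and 281 CPM. Among WT cells of this class with Ccl6, Ccl9 was found in 53.7%, against 14.9% of those without, at median depths of 5259 and 5330 UMIs. In TG these shares were 35.7% and 17.9%. Ccl9 had no UMI in cluster 22 (20 TG and 80 WT cells), whereas the 23 WT cells of cluster 27, led by Prg4, C4b and Saa3, held 753 CPM of Ccl9, 1988 of Ccl6 and 746 of Cxcl10.

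Cxcl10 was carried by few cells. In cluster 5, at 196 CPM in TG and 308 in WT, the 3 cells with the most UMIs held 62.4% and 59.0% of them. In macrophage-annotated cells it was at 57.2 and 216 CPM and was found in 12.8% and 22.6% of cells, or 9.17% and 11.1% after thinning, beside 1.72% and 0.504% of the naive CD4 T cells of cluster 6, at median depths of 5124 and 5279 against 3117.5 and 2478 UMIs. Among T cells it stood out in the NKT cluster 20, at 196 CPM in TG (23 cells) and 423 in WT (119 cells). That cluster is led by the interferon-induced genes Ifit1, Ifit3b and Ifit3, and 3 cells held 94.4% and 69.5% of the Cxcl10 UMIs. Cxcl16 was highest in cluster 28 (6 TG and 15 WT cells, led by Fscn1, Ccl22 and Apol7c), at 1096 and 1002 CPM and in every cell. Outside it, macrophage-annotated cells held 26.1 and 57.2 CPM. In naive CD4 T cells of cluster 6, Cxcl16 was found in 0 of 397 WT cells, which allows a share of cells with a UMI of up to 0.925% at this depth, and in 1 of 58 TG cells.

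TG and WT were then compared within each class. A ratio was called when it was at least 2-fold in either direction with at least 20 UMIs in both genotypes together. Over the 8 chemokines and 9 classes, 56 ratios had 20 UMIs, and 19 of these were called. Of all genes, 1.94% to 5.41% were called higher and 2.46% to 5.51% lower in a class. Several called levels were near those in B cells of cluster 1, as given below. Xcl1 was lower in TG in NK-annotated cells, and Ccl5 was higher in TG in the 5 T and NK classes, past 2-fold in CD4 T cells alone.

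In NK-annotated cells, 7 of the 8 genes had enough UMIs, 1 was called higher and 2 lower, beside 3.92% of 9179 genes higher and 4.3% lower. Xcl1 was at 361 CPM (337 to 387) in TG and 1176 (1124 to 1231) in WT, a log2 ratio of -1.70 (-1.82 to -1.58). It was found in 33.7% of TG and 66.7% of WT NK-annotated cells, and in 20.2% and 49.3% after thinning to 1000 UMIs. The gap was smaller in clusters 3 and 8 and in the ratio pooled within clusters, but not in cluster 11. Cluster 11, nearly all TG with 22 WT cells, held Xcl1 at 35.6 CPM in TG and 173 in WT. The ratio pooled within clusters was -1.12, with 822 against 1785 CPM in cluster 3 and 253 against 542 in cluster 8. The T cell markers of the class were at 3437 CPM in TG and 949 in WT, and in cluster 3 of WT at 1462. Cxcl10 was at 7.01 CPM from 16 UMIs in TG and 20.6 CPM from 33 UMIs in WT (log2 -1.55, -2.51 to -0.65), and the called Ccl6 (19.7 and 8.72 CPM) was near the level in B cells. Ccl5 was higher in TG (log2 0.83, 0.81 to 0.86). Ccl3 and Ccl4 were lower over the class (-0.39 and -0.27) and in cluster 3 (-0.81 and -0.58). In cluster 8, whose T cell markers were at 646 and 372 CPM, both were higher (0.39, 0.26 to 0.53, and 0.58, 0.45 to 0.72).

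In CD8αα T cells Xcl1 was again lower and Ccl5 higher, at a smaller size. Xcl1 was at 778 CPM (731 to 827) in TG and 1369 (1273 to 1470) in WT, a log2 ratio of -0.82 (-0.95 to -0.68), and Ccl5 had a ratio of 0.43 (0.39 to 0.47). Ccl3 was at -0.29 (-0.51 to -0.06) and Ccl4 at -0.08 (-0.22 to 0.06), an interval that holds 0. Leaving out cells with Trdc gave -0.98 for Xcl1 and 0.32 for Ccl5, and 3 of the 5 ratios of this class left their interval. Of 5 genes with enough UMIs only Ccl6 was called, from 27 UMIs in TG and 4 in WT, with an interval that holds 0 (-0.03 to 3.46). In this class 5.37% of 8046 genes were higher and 2.46% lower.

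**Figure D2:**
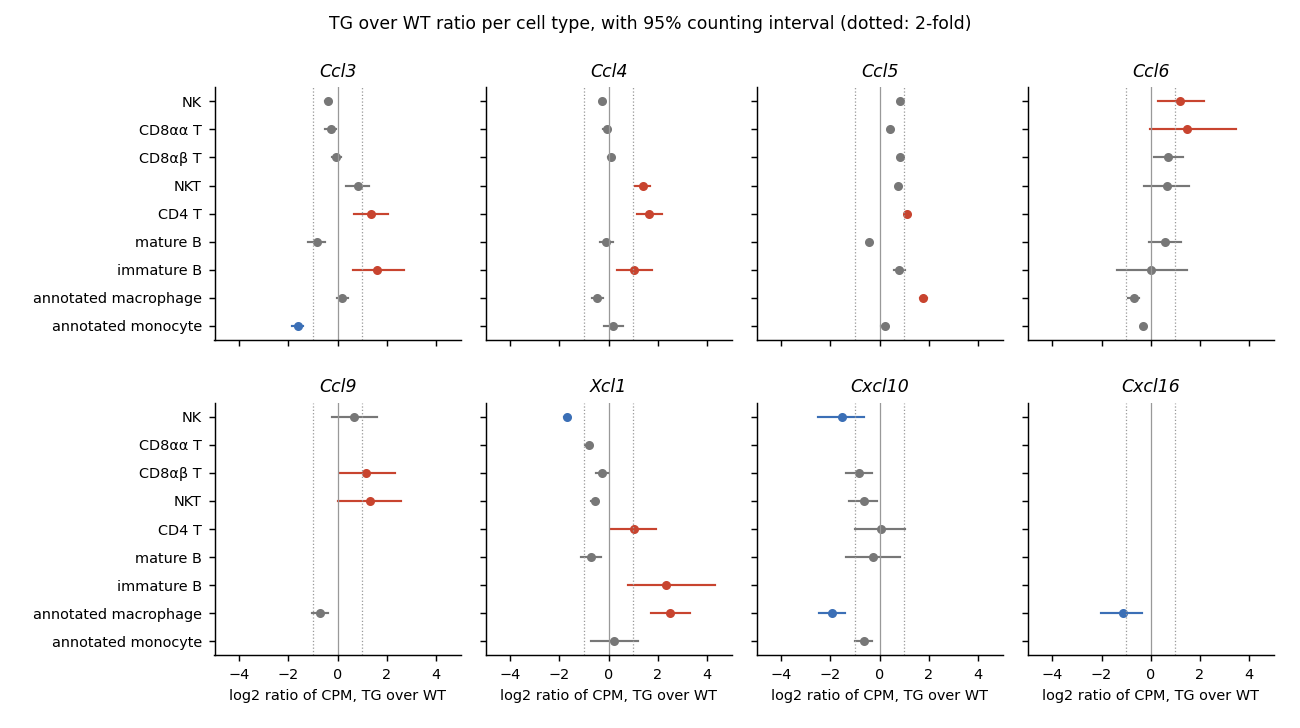
log2 ratio of CPM, TG over WT, for each chemokine (panels) in the 9 classes with at least 50 cells per genotype (rows), drawn where both genotypes together had at least 20 UMIs; points are ratios, bars 95% counting intervals, dotted lines 2-fold, red called higher and blue called lower. Ccl5 lies right of 0 in all 5 T and NK classes (0.43 to 1.12), and Xcl1 lies at -1.70 in NK-annotated cells but right of 0 in CD4 T cells, immature B cells and macrophage-annotated cells.

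In CD8αβ T cells Ccl5 was at 10078 CPM (9993 to 10164) in TG and 5727 (5643 to 5813) in WT, a log2 ratio of 0.82, and was found in 97.5% and 67.9% of cells, or 89.9% and 53.7% after thinning, beside 28.1% and 24.7% of mature B cells. The class lay in different clusters, with 14.2% of TG and 44.3% of WT cells in cluster 4 and 24.4% and 8.91% in cluster 12, and within clusters the Ccl5 ratio was 0.92. Over the class the ratios of Ccl3 and Ccl4 were near 0 (-0.05, -0.22 to 0.13, and 0.08, -0.05 to 0.22), and 3 cells held 27.8% of the WT Ccl4 UMIs. Within clusters these ratios were 0.62 and 0.55. Of the 730 WT Ccl4 UMIs, clusters 4, 7, 12 and 13 held 21, 117, 75 and 48, and clusters 18 and 23 the rest. For the 1339 UMIs in TG these were 85, 489, 489 and 158. Cluster 23 made up 1.47% of TG and 9.28% of WT cells, and cluster 18 made up 11.3% and 4.52%. Ccl4 was higher in TG in clusters 4 (2.56), 7 (0.70), 12 (0.96) and 13 (0.72), and Ccl3 in clusters 4 (1.24), 7 (1.22) and 12 (0.78). The Ccl3 levels of cluster 4 (36.0 and 15.3 CPM) were within 2-fold of those in B cells of cluster 1. Ccl4 was found in 44.5% of TG and 20.9% of WT cells, or 17.5% and 11.2% after thinning. Of 7 genes with enough UMIs, 1 was called, Ccl9, from 38 UMIs in TG and 10 in WT (1.14, 0.10 to 2.31, and 0.81 within clusters), at 7.17 and 3.26 CPM. Over all genes of this class 4.15% were higher and 3.05% lower. In NKT cells, 2 of 7 were called higher, beside 4% of all genes higher and 2.64% lower. Ccl4 was at 83.3 and 32.1 CPM (1.38, 1.06 to 1.69), against 55.8 and 31.1 in B cells of cluster 1, and Ccl9 was at 5.66 and 2.27 CPM from 10 and 15 UMIs. Without the 3 cells with the most UMIs the Ccl9 ratio was 0.91, under 2-fold, and Cxcl10 moved from -0.66 to -1.35. Ccl5 was higher (0.74, 0.70 to 0.79) and Xcl1 lower (-0.57, -0.72 to -0.43) in TG NKT cells.

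CD4 T cells had the largest share of called chemokines, 4 of the 5 with enough UMIs, all higher in TG, beside 5.41% of 8536 genes higher and 3.28% lower. Ccl5 was at 2919 CPM (2805 to 3037) in TG and 1344 (1293 to 1396) in WT, a log2 ratio of 1.12, and was found in 76.1% and 52.0% of cells, or 51.3% and 35.1% after thinning. Ccl4 was at 88.8 and 28.2 CPM (1.65, 1.13 to 2.18), Ccl3 at 46.2 and 18.0 CPM (1.36, 0.66 to 2.06) and Xcl1 at 24.9 and 12.3 CPM (1.01, 0.09 to 1.92). In TG the last 3 levels were within 2-fold of those in B cells of cluster 1. The naive CD4 T cells of cluster 6 made up 58 of the 238 cells in TG and 397 of the 734 in WT, and within clusters the ratio was 0.63 for Ccl5 and 0.40 for Xcl1.

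The cluster view separated Ccl5 from Xcl1. Over the 10 T and NK clusters with at least 50 cells in each genotype, Ccl5 was higher in TG in all 10, with every interval above 0 and ratios from 0.34 in cluster 3 to 2.34 in cluster 4 of the CD8αβ class (2586 and 511 CPM). In cluster 18, with 115 TG and 37 WT cells, Ccl5 was lower in TG (7876 and 9352 CPM). Of the 8 clusters with 20 UMIs of Xcl1, 6 had intervals below 0, and cluster 4 had one above 0, at 36.0 and 4.77 CPM. Ccl4 was higher in 8 of the 10 and lower in cluster 3, and Ccl3 was higher in 5 and lower in clusters 2 and 3.

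**Figure D3:**
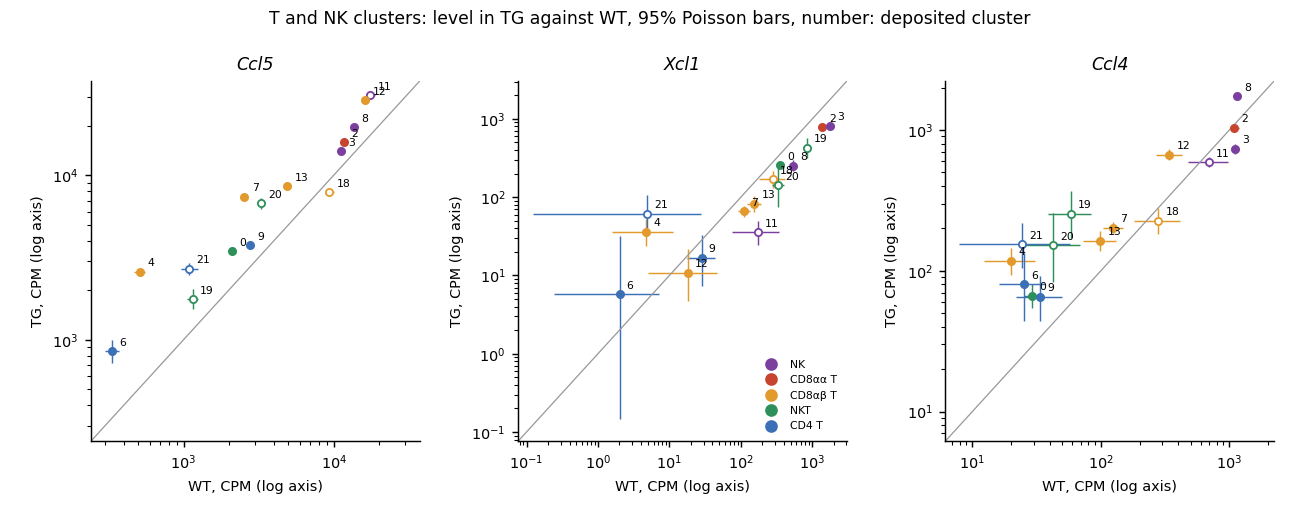
Level of Ccl5, Xcl1 and Ccl4 in TG (vertical) against WT (horizontal), both as CPM on log axes, for T and NK clusters with at least 20 cells in each genotype; bars are 95% Poisson intervals, the line marks equal levels, numbers name the deposited clusters, and hollow points have under 50 cells in a genotype. Ccl5 lies above the line in every filled cluster, and the clusters with 173 CPM or more of Xcl1 in WT lie below it.

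In mature B cells 0 of 6 genes with enough UMIs were called, beside 1.94% of 9852 genes higher and 2.81% lower. Without doublets 2 were past 2-fold, Xcl1 at 1.79 against -0.73 and Ccl5 at -1.26 against -0.43. Ccl5 was at 834 CPM in TG and 1122 in WT, but cluster 17 (29 TG and 155 WT cells), which held T cell markers at 2792 and 3150 CPM, was at 9503 and 4461 CPM of Ccl5. In cluster 1 alone, the Ccl5 ratio was 0.33 and the Xcl1 ratio 2.04, against -0.43 and -0.73 for the whole class. In immature B cells 3 of 5 were called higher, beside 2.96% of genes higher and 3.07% lower. These were Xcl1 (19.6 and 3.93 CPM, 24 and 4 UMIs), Ccl3 (32.7 and 10.8 CPM) and Ccl4 (49.9 and 24.6 CPM), whose ratio turned from 1.02 to -0.46 in cells thinned to 1000 UMIs. Without doublets Ccl5 was also past 2-fold (1.23 against 0.79). The TG levels in cluster 1 were 15.9, 29 and 55.8 CPM for the same genes.

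In macrophage-annotated cells all 8 genes had enough UMIs, 2 were called higher and 2 lower, beside 4.52% of 8249 genes higher and 5.07% lower. Ccl5 was at 1668 CPM (1567 to 1774) in TG and 493 (457 to 531) in WT, a log2 ratio of 1.76 (1.62 to 1.9). Xcl1 was at 80.1 and 14.3 CPM from 49 and 20 UMIs (2.49, 1.71 to 3.32). The NK markers of the class were at 191 CPM in TG and 37.2 in WT and the T cell markers at 600 and 359, and their part in both ratios was not tested. The 3 cells with the most UMIs held 34.4% and 31.7% of Ccl5 and 46.9% and 40% of Xcl1. Cxcl10 was at 57.2 CPM (39.8 to 79.5) in TG and 216 (193 to 242) in WT, a log2 ratio of -1.92 (-2.47 to -1.41). Of its 303 WT UMIs, 116 came from cluster 27, which had no TG cell, and in cluster 15 the levels were 79.1 and 239.8 CPM (-1.60, -2.17 to -1.07). Cxcl16 was at 26.1 and 57.2 CPM from 16 and 80 UMIs (-1.13, -2.00 to -0.34), and in cluster 15 the interval of its ratio held 0 (-1.75 to 0.18). Ccl6 and Ccl9 were lower by less than 2-fold (-0.69 and -0.73).

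In cluster 5 cells, 1 of 6 genes with enough UMIs was called, Ccl3, which was lower in TG, beside 5.11% of 5031 genes higher and 5.51% lower. Ccl3 was at 410 CPM (360 to 464) in TG and 1265 (1170 to 1365) in WT, a log2 ratio of -1.63 (-1.84 to -1.41), and was found in 29.9% and 36.0% of cells, or 19.1% and 27.9% after thinning. Ccl6 was closer (-0.31, -0.40 to -0.22), as were Ccl4 (0.18, -0.19 to 0.56) and Ccl5 (0.20, 0.06 to 0.34), but without doublets the Ccl5 ratio was 1.11, past 2-fold.

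Cxcl10 was set beside 20 other genes that interferon-γ induces, of which 19 were in the table. The TG library also held cells of IFN-γ ARE-Del-/- mice, and the effects of genotype and library cannot be told apart. In cluster 5 cells, 12 of 17 with enough UMIs were called higher in TG and 0 lower. Of all genes of the class, 5.11% were called higher and 5.51% lower. The list had a median log2 ratio of 1.69 against -0.08 over all genes. Gbp2, a guanylate-binding protein, was at 759 CPM in TG and 86.1 in WT, and Cd274, which encodes PD-L1, at 318 and 70.8. Cxcl10 had a ratio of -0.66 (-1.01 to -0.30). In macrophage-annotated cells, 10 of 19 were called higher and 0 lower, beside 4.52% of all genes higher and 5.07% lower. The median was 1.01 against 0.07 over all genes. Iigp1, an immunity-related GTPase, was at 78.4 and 6.43 CPM. Cxcl9, the other Cxcr3 ligand that was measured, was at 83.3 and 141 CPM (-0.76, -1.23 to -0.31). Within cluster 15 the list had 6 genes higher and 1 lower of 19 (median 0.80 against 0.03 over all genes), beside 4.59% of 6781 genes higher and 4.14% lower, and within cluster 22 it had 2 higher and 0 lower of 9, beside 5.34% and 7.87% of genes. Cxcl9 and Cxcl10 were thus lower in TG in this class while Gbp2 and Iigp1 were higher, and the reason was not tested. In mature B cells 6 of 18 were higher, in CD4 T cells 3 of 17, in NKT cells 2 of 18, in CD8αα T cells 1 of 16, in NK-annotated cells 1 of 17, in immature B cells 1 of 17 and in CD8αβ T cells 0 of 18, and 0 were lower in each. The share of all genes called higher, given above, was 1.94% to 5.41% in these classes, so a count of 0 or 1 is near the background.

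**Figure D4:**
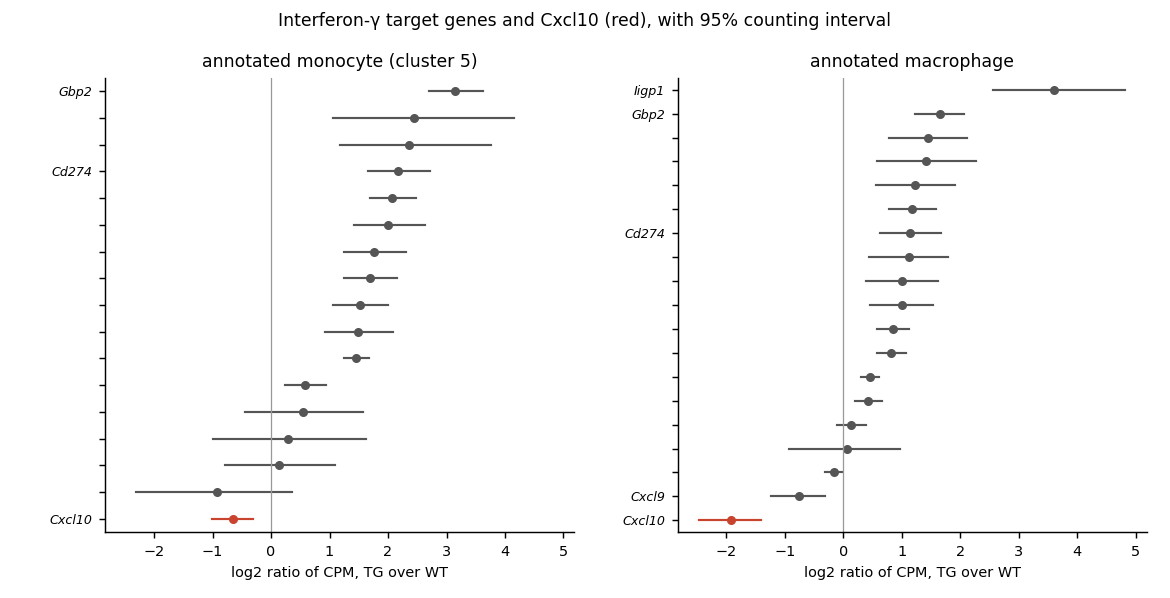
log2 ratio of CPM, TG over WT, for interferon-γ target genes (grey, 1 row per gene, those described in the text named) and Cxcl10 (red) in the annotated monocytes of cluster 5 (left) and in macrophage-annotated cells (right); points are ratios and bars 95% counting intervals, for genes with at least 20 UMIs. Most grey points lie right of 0, and the list has medians of 1.69 and 1.01, while Cxcl10 lies at -0.66 and -1.92.

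The levels of direct receptors of these chemokines are given next. Ccr1, the receptor of Ccl3, Ccl5, Ccl6 and Ccl9, was highest in cluster 5 cells, at 807 CPM in TG and 913 in WT. Xcr1 was at 126 and 206 CPM in macrophage-annotated cells and at 20.4 CPM or less in every other class. Cxcr3 was at 379 and 302 CPM in NKT cells, 302 and 291 in CD8αα T cells and 228 and 99.1 in CD4 T cells. Cxcr6 was at 610 and 711 CPM in NKT cells and was lower in TG NK-annotated cells (60.0 and 186 CPM, log2 -1.63, -1.93 to -1.33). Ccr3, a receptor of Ccl5, was higher in TG NK-annotated cells (54 and 1 UMIs) and in CD8αβ T cells (6.60 and 3.26 CPM, with an interval that holds 0).

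In CD4 T cells Cxcr3, Cxcr6 (212 and 97.1 CPM) and Ccr3 (45.0 and 12.3 CPM) were called higher in TG. In mature B cells and in cluster 5 cells Cxcr6 and Cxcr3 were called lower, at 86.1 CPM or less in WT. Of mature B cells, 2.72% of TG and 10.4% of WT cells were in cluster 17, which held T cell markers. The part of that cluster in these calls was not tested. In macrophage-annotated cells Ccr1 was called lower, at 18.0 and 49.3 CPM. Among the other receptors, Cx3cr1, the fractalkine receptor of effector lymphocytes, was higher in TG in NK-annotated cells (528 and 33.0 CPM, log2 interval 3.60 to 4.42) and in CD8αβ T cells (291 and 41.1 CPM, 2.83). It was past 2-fold higher at far lower levels in CD4 T cells (29.6 and 8.22 CPM), NKT cells (15.9 and 2.12), mature B cells (21.1 and 2.50) and cluster 5 cells (38.4 and 11.5), and was at 36 and 0 UMIs in CD8αα T cells. The NKT level was thus below that of mature B cells. Of CD8αβ T cells, 24.4% of TG and 8.91% of WT cells were in cluster 12. Cluster 11 held 343 TG and 22 WT NK-annotated cells. The part of this mix in the class ratios was not tested, since no value within clusters was computed for any chemokine receptor. Ccr7, the lymph node homing receptor, was lower in TG CD4 T cells (52.1 and 166 CPM, -1.67), of which 24.4% of TG and 54.1% of WT cells were in the naive cluster 6, and no value within clusters was computed. Ccr2 was lower in TG NK-annotated cells (132 and 359 CPM, -1.45).

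Among the 12 other chemokine ligands, Cxcl2, a neutrophil attractant, was called in 4 classes. It was lower in TG macrophage-annotated cells (152 and 1192 CPM, log2 -2.97, -3.29 to -2.67) and higher in CD4 T, NK-annotated and NKT cells (ratios from 1.07 to 1.17, at 61.6 CPM or less), levels within 2-fold of those in mature B cells (42.9 and 28.7 CPM). Cxcl2 was far higher in cluster 5 cells (12752 and 16119 CPM). The neutrophil markers of macrophage-annotated cells were at 400 CPM in TG and 602 in WT. No ratio within clusters was computed for Cxcl2, and the part of these markers or of the cluster mix was not tested. In macrophage-annotated cells 6 of 9 with enough UMIs were lower and 1, Ccl22 (60.5 and 22.1 CPM), higher. Besides Cxcl2, the 2 lower ligands with the most UMIs were Cxcl13 and Cxcl1, with 0 UMIs in TG and 342 and 315 in WT in both files. The WT UMIs of each lay in 11 cells. In cluster 27, which had no TG cell, Cxcl13 was at 2201 CPM, against 244 CPM over all WT macrophage-annotated cells. Pf4, also among the 6, was at 1840 CPM in that cluster, against 205 CPM over those cells, and had 0 UMIs in TG. The part of cluster 27 in the count of lower ligands was not tested. Another of the 6, Ccl24, was at 0 in TG through the table's filter. The library file held 84 UMIs of it in 1 TG cell and 59 in 17 WT cells, which turned its ratio to 1.70, so 5 of 9 were lower with the library counts.

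The genes whose level was most like each chemokine were ranked by Pearson's r of log2(CPM + 10) over the 21 profiles of a class and genotype with at least 50 cells, among 9776 genes. This is a description over profiles that share libraries, and it leaves out basophils, which held the highest levels of Ccl3, Ccl4, Ccl6 and Ccl9, and the class named other, which held that of Cxcl16. Ccl5 was most like Nkg7 (r = 0.97), Cst7 and Baiap3, genes of cytotoxic granules and their release. Xcl1 was most like the NK receptor genes Klrc2 (0.98), Klrb1c and Cd160. Ccl6 was most like the myeloid genes Cd300ld (0.98), Slc11a1 and Tlr13, Ccl9 like Batf3 (0.97), Pid1 and Lrp1, and Cxcl16 like Gpr141b (0.98), Lpl and Tlr3. Ccl4 followed Itgax (0.93), Cd244a and Sema4c, and Ccl3 followed Fcer1g (0.88), Itgax and Cd244a. Cxcl10 had the weakest match, Cxcl1 (0.87), followed by Prr5l and Hgsnat.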

How the data were processed

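The deposited values used were UMI counts per gene and cell, which the authors made with the BD Rhapsody pipeline (version 1.9 in the headers of the library files, with STAR and the mm10 genome), and which they filtered. The authors' cell type names, clusters (Seurat, after canonical correlation) and genotype names were used as given. The members and lists were chosen with earlier results of these data known. TG cells came from the dnTGFbRII and IFN-g ARE-Del pool (18498477 UMIs) and WT cells from the P40-/-IL-2Ra-/- and wild type pool (22216379 UMIs), so groups followed the labels.

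Counts were summed per genotype and class and scaled to CPM. CPM had exact Poisson intervals, ratios exact conditional binomial intervals and shares Clopper-Pearson intervals, all at 95%. A summed count of 0 was set to 3 counts for a call, and such a ratio is a bound. Captured molecules of 1 cell are not independent, so intervals cover counting error only. Of the cell indices, 36 of those of named cells occurred in both libraries, 0.775% of TG and 0.494% of WT cells. Named genes were the 8 members, the 3 genes most like each (at least 200 UMIs), the direct receptors, and per class up to 3 other ligands or receptors called in each direction with the most UMIs. The shares of cells with a UMI were also taken after thinning each cell to 1000 UMIs, and no cell of the classes given was shallower. Scrublet (scanpy 1.11.5, expected rate 5%) marked 0.839% of TG and 3.31% of WT cells as doublets, which were kept. The ratio calculation was tested on simulated data. Alternatives were TMM factors (edgeR 4.0.16, R 4.3.3), a minimum of 1 UMI, cells weighted equally, totals free of ribosomal and mitochondrial genes, thinned cells, no doublets, no top 3 cells and library-file counts. Python 3.11.15, numpy 2.4.6, pandas 2.3.3, scipy 1.17.1 and matplotlib 3.10.9 were used. Antibody counts, the normalised tables and the sorted-cell sequencing of the study were not used here. Some genes of the lists are not reported here.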

Additional observations from a re-analysis of the deposited data

Results flagged for a closer look

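Xcl1 and Ccl3 were past 2-fold in opposite directions in different classes, and the difference between classes was not tested. The log2 ratio of Xcl1, TG over WT, was -1.7 in NK-annotated cells, 1.01 in CD4 T cells, 2.32 in immature B cells and 2.49 in macrophage-annotated cells. In CD4 T cells it was under 2-fold within clusters. The B cells of cluster 1, read as background, had a ratio of 2.04. That of Ccl3 was -1.63 in cluster 5 cells, 1.36 in CD4 T cells and 1.6 in immature B cells.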

How the results depend on the processing

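Of the 19 called ratios, all 19 were called the same way without doublets and with the library-file counts, 18 with TMM factors, with totals free of ribosomal and mitochondrial genes and with equal weight per cell, 17 without the 3 cells with the most UMIs, and 13 in thinned cells. The within-cluster ratios, the cluster 1 and Trdc values and the library-file counts of other ligands and receptors were alternatives chosen after seeing the data, and 16 of the 19 were called within clusters. One of the called ratios reversed, Ccl4 in immature B cells, at -0.46 when thinned to 1000 UMIs. The number of chemokines called moved from 4 to 2 within clusters in CD4 T cells. With a minimum of 1 UMI it moved from 1 to 2 in CD8αα and in CD8αβ T cells, from 3 to 5 in immature B cells, from 0 to 1 in mature B cells and from 1 to 3 in cluster 5 cells. Without the 3 cells with the most UMIs it was 2 in CD8αβ T cells and stayed 2 in NKT cells, with 1 higher and 1 lower (Cxcl10, -1.35) against 2 higher, and without doublets 2 in mature B cells (Xcl1 1.79 and Ccl5 -1.26, against -0.73 and -0.43) and 2 in cluster 5 cells (Ccl5 1.11, against 0.20). The cause was not tested. For other ligands and receptors the same minimum of 1 UMI gave 6 in CD8αα T cells, 10 in NK-annotated cells, 8 in NKT cells, 7 in immature B cells and 7 in cluster 5 cells, against 3, 5, 4, 2 and 4. Of 130 levels, 43 left their interval with equal weight per cell, 94 without the top 3 cells and 19 without doublets. No paired analysis was possible because each genotype was 1 library and no test was made.

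Few UMIs of Cxcl16, Ccl9 and Cxcl10 were read in lymphocytes, which limits the precision of their ratios, and every lymphocyte class compared held under 20 UMIs of Cxcl16. The number of animals per pool is unknown, chemokine UMIs in B cells differed between the libraries, and the macrophage, NK, CD4, CD8αβ and monocyte names covered different clusters or went against their markers.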

Other observations

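The library files also held 5379 cells of the first pool and 16829 of the second with no genotype name in the metadata, which stand for no genotype here. T or NK cells were gated on at least 2 UMIs of T and NK markers with few of other lineages. In the first pool the 1413 named cells of this gate held Ccl5 at 11239 CPM and Xcl1 at 378 CPM, and the 1785 cells without a name 10011 and 491 CPM. In the second pool the 3105 named cells held Ccl5 at 4502, Ccl4 at 313 and Xcl1 at 415 CPM, and the 8271 cells without a name 26827, 1118 and 78.1 CPM. Ccl5 and Ccl4 were thus higher, and Xcl1 lower, in the unnamed T or NK cells of the second pool than in its named cells. The myeloid gate was set on macrophage and monocyte markers with few B and T cell markers, and without a limit on NK markers. Its named cells of the second pool held Ccl5 at 3450 and Xcl1 at 176 CPM, against 493 and 14.3 CPM in WT macrophage-annotated cells. The gate can therefore hold NK cells. In it, Cxcl10 was at 49.2 CPM in 194 named and 207 CPM in 341 unnamed cells of the first pool. In the second pool it was at 192 CPM in 355 named and 82.6 CPM in 1017 unnamed cells. In the B gate, Ccl5 was at 299 and 442 CPM in the first pool and at 257 and 293 CPM in the second, named and unnamed.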
